A study of Mus musculus with 4 samples.

Results

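Dendritic cells carrying part of a CCR7 maturation programme were picked from 2 single-cell RNA libraries of lung leukocytes, 1 from Plaur-/- mice and 1 from C57B6/J wild-type (WT) mice. A barcode counted as a member when at least 3 of the 7 genes Ccr7, Fscn1, Ccl22, Cacnb3, Il4i1, Socs2 and Nudt17 had a unique molecular identifier (UMI, 1 counted transcript molecule), H2-Ab1 had 10 or more UMIs, and the lymphocyte genes Cd79a, Cd3e and Cd3d had none. The rule found 325 members among 18985 cells that had 200 or more genes and no more than 10% of UMIs from mitochondrial genes. They were 163 of 10041 cells in the KO-labelled library and 162 of 8944 cells in the WT-labelled library. The choice rests on measured RNA, so the levels of these 8 genes are a description of the choice.

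Both genotypes were sensitized with lipopolysaccharide and ovalbumin on days 0 and 7 and breathed aerosolized ovalbumin on day 14, so no unchallenged mice enter. Each genotype had 8 mice, and the labels used here do not say how many went into a library or which part of Plaur is deleted. Lungs were digested and CD45.2+ leukocytes, which the labels call circulating, were sorted, while another label field calls the material total lung cells. TotalSeq-A antibodies against ST2, Ly-6C, CCR3, CD14 and CD11b, each carrying a DNA tag, had been bound to the cells. With 1 library per genotype nothing was tested between genotypes, and every interval covers counting error at 95% and no spread between animals.

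Dendritic cells take up antigen in tissue and present it to T cells on MHC class II. On maturation they gain the chemokine receptor CCR7, which guides them through lymph vessels to the draining lymph node, and the actin bundler fascin (Fscn1), while costimulatory ligands increase and new class II synthesis is shut off as the class II transactivator Ciita falls. In mouse lung the mature cells arise from a cDC1 lineage, known for cross-presentation and marked by Xcr1 and Clec9a, and from a cDC2 lineage marked by Cd209a, Mgl2 and Sirpa. Plaur encodes uPAR, the receptor of urokinase.

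Promoters of class II genes are shown because class II RNA differed along the order of members described below. The 250 promoter bases upstream of 8 of 9 class II chain genes were in the RefSeq table of build GRCm38.p6 (H2-Ab1 was not in it), and 7 of these, all but H2-DMa, hold the motif TGATTGG on either strand, against 2375 of 32851 promoters (7.23%). The longer form CTGATTGG, which overlaps it, was in 4 of the 8 (H2-Aa, H2-Eb1, H2-Eb2 and H2-Oa) and in 1258 promoters (3.83%). This motif is the Y box bound by NF-Y in class II promoters. It was in none of the 4 other antigen presentation genes in the table (Ctss, Ifi30, Lgmn and Ctsl). The windows of 4 chain genes are printed 5′ to 3′ on the gene's strand with the motif in capitals. Of these, H2-Aa and H2-Eb2 moved in opposite directions along the order of members. H2-Aa lies on the minus strand at chr17:34287824-34287923, and on the plus strand H2-Eb1 lies at chr17:34305756-34305862, H2-Eb2 at chr17:34325523-34325629 and H2-DMb1 at chr17:34153078-34153184.
H2-Aa: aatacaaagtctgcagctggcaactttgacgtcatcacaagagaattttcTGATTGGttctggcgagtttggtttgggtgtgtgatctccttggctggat
H2-Eb1: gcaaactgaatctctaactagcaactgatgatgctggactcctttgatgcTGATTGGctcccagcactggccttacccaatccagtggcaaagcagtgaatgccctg
H2-Eb2: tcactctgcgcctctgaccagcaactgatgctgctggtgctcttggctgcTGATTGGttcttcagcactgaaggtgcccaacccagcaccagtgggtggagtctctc
H2-DMb1: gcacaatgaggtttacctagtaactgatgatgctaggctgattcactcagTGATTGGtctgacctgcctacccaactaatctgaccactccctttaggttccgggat
The motif begins 50 bases before the gene start in H2-Aa, 61 in H2-Eb1, 102 in H2-Eb2 and 63 in H2-DMb1. A match of letters is a description and not a bound site.

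The whole libraries held 47442215 UMIs over 10102 barcodes (KO-labelled) and 42913843 UMIs over 9024 barcodes (WT-labelled). Filtered cells had medians of 2886 and 3288.5 UMIs. Members were deeper, with medians of 7998 UMIs and 2385 genes in the KO-labelled library and 8884 UMIs and 2484.5 genes in the WT-labelled library. The libraries shared 16 barcodes, none of them a member. Neutrophils, taken by a fixed gate on S100a8, S100a9, Retnlg, Cxcr2 and Csf3r, made up 39.3% of KO-labelled and 27.7% of WT-labelled cells. Scrublet, a doublet caller, marked 9 KO-labelled members (5.52%) and 1 WT-labelled member (0.617%), against 4.55% and 2.91% of all filtered cells, and all were kept.

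Members were 1.62% of KO-labelled cells (interval 1.39 to 1.89) and 1.81% of WT-labelled cells (interval 1.55 to 2.11). The ratio of the shares was 0.896, and its interval of 0.717 to 1.12 includes 1. Shares move with the abundance of every other cell type: outside the neutrophil gate the ratio was 1.07, and among members plus the cDC1 and cDC2 gates, where the KO-labelled gates held more cells, it was 0.776.

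The members did not carry the rule genes as 1 block. The CCR7 label fits only part of them: Ccr7 had a UMI in 52.1% of KO-labelled and 55.6% of WT-labelled members, and they are therefore called members here. Il4i1, an amino acid oxidase of mature dendritic cells, was found in 98.2% and 96.3% of members, Socs2, an inhibitor of cytokine receptor signalling, in 91.4% and 82.7%, and Ccl22, a ligand of CCR4, in 87.7% of members of either library. Fscn1 was found in 39.9% and 53.1%, the calcium channel subunit gene Cacnb3 in 33.1% and 32.7%, and Nudt17 in 26.4% and 29.0%. In CPM, a gene's UMIs per 1000000 UMIs summed over the members, Ccr7 stood at 399 CPM in both libraries, Fscn1 at 417 and 536, Ccl22 at 3006 and 2678, and Il4i1 at 921 and 1102 CPM, KO-labelled first. Thinned to 2000 UMIs per cell, which left out no member but 1854 of 3943 KO-labelled and 1303 of 2478 WT-labelled neutrophils and 311 and 241 B cells, Ccr7 was in 34.4% of KO-labelled and 36.4% of WT-labelled members and Fscn1 in 27.0% and 40.1%.

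The other cell types differed in these genes. In the neutrophil gate, with medians of 2110 and 1930.5 UMIs, Ccr7 was in 2.31% of KO-labelled and 2.02% of WT-labelled cells, and Fscn1 in 0.178% and 0.323%. Lymphocytes, which use CCR7 themselves, were close to members in Ccr7: B cells had it in 39.2% and 37.0% of cells. Thinned, Ccr7 was in 32.0% and 28.4% of B cells and 22.4% and 17.2% of T cells, against the 34.4% and 36.4% of members. In the gated cDC1 and cDC2 cells, defined with fewer than 2 rule genes, Ccr7, Fscn1, Cacnb3 and Nudt17 were in 1.26% of cells or fewer in each library, whereas Il4i1 was in 24.5% of KO-labelled and 30% of WT-labelled cDC2 cells and Ccl22 in 23.6% and 24.5% of cDC1 cells.

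Exactly 3 rule genes were found in 82 KO-labelled members (50.3%, interval 42.4 to 58.2) and 75 WT-labelled members (46.3%, interval 38.4 to 54.3). All 7 were found in 22 and 20 members. The commonest combination in both libraries was Ccl22, Il4i1 and Socs2 alone, in 60 KO-labelled and 50 WT-labelled members. The plot of rule genes per cell shows the largest class at the entry threshold in both libraries, with 7.98% to 16.7% of members at each of 4, 5, 6 and 7 genes.

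**Figure D1:**
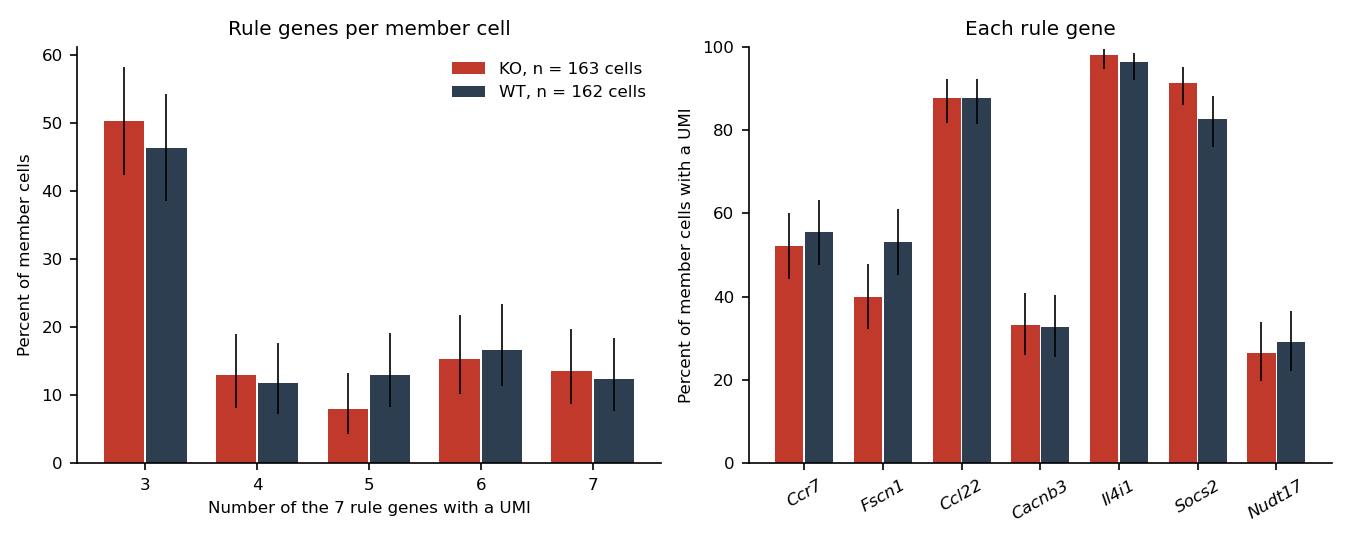
Left, percent of member cells (vertical axis) by the number of the 7 rule genes with a UMI; right, percent of member cells with a UMI of each rule gene, in the KO-labelled (red, 163 cells) and WT-labelled (dark blue, 162 cells) libraries. Bars are shares and lines are 95% Clopper-Pearson intervals; about 50.3% and 46.3% of members sit at 3 genes.

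The edges of the rule were graded too. The 140 KO-labelled and 112 WT-labelled cells with exactly 2 rule genes resembled the members with 3 in Cd209a, a cDC2 lectin, at 1244 and 978 CPM against 1456 and 1375 CPM in members with 3. They were lower in Ccl22, at 427 and 258 CPM against 731 and 884 CPM in members with 3. On the H2-Ab1 edge, 8 KO-labelled and 9 WT-labelled cells with 5 to 9 UMIs of H2-Ab1 had 1045 and 620 CPM of Ccr7, and 11 and 7 members with 10 to 19 UMIs had 1391 and 390 CPM. A further 20 and 12 cells passed everything but the lymphocyte genes and were left out.

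The rule genes that gated cDC1 and cDC2 cells lack, Ccr7, Fscn1, Cacnb3 and Nudt17, were used to order the members, a split chosen after the data were seen. At least 3 of these 4 genes were found in 49 KO-labelled members (30.1%, interval 23.1 to 37.7) and 56 WT-labelled members (34.6%, interval 27.3 to 42.4). One or 2 were found in 54 and 56 members, and none in 60 (36.8%, interval 29.4 to 44.7) and 50 (30.9%, interval 23.9 to 38.6). Median depth was 8328 and 9213 UMIs with 3 or 4 genes, 8039 and 8864 with 1 or 2, and 7607.5 and 8841 with none, so depth differed little along the order. A further 48 KO-labelled and 47 WT-labelled cells met the rule except that H2-Ab1 was below 10 UMIs. These cells, which are no members and had medians of 5886.5 and 6217 UMIs, are given beside the order as the cells outside the H2-Ab1 minimum.

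As a group, the cells outside the minimum held more Ccr7 than any of the 3 subsets of members. Ccr7 was in 97.9% of the KO-labelled and 85.1% of the WT-labelled ones, at 1723 and 1339 CPM, against 1015 and 839 CPM in members with 3 or 4 of the genes. Fscn1 stood at 2118 and 1871 CPM in them, against 1253 and 1250 CPM in members with 3 or 4. At least 3 of the 4 genes were found in 43 of the 48 (89.6%) and 38 of the 47 (80.9%). The H2-Ab1 minimum therefore kept out a group with more Ccr7 RNA than the members in either library, though single members can hold as much.

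Several maturation genes that the rule did not use stepped up along the same order. Not all did: Ccl17, given below, fell along it in WT-labelled members and did not rise step by step in KO-labelled ones. How many genes of the maturation list rose or fell along the order is not given here. Tmem123 was at 115 CPM in KO-labelled members with none of the 4 genes, 306 with 1 or 2, 1041 with 3 or 4, and 1734 in the cells outside. In the WT-labelled library the same steps were 69.3, 384, 1162 and 1687 CPM. Samsn1, an adaptor of immune cells, went through 123, 321, 797 and 1734 CPM in the KO-labelled and 182, 537, 1114 and 1973 CPM in the WT-labelled library. Relb, a subunit of the non-canonical NF-kB pathway, stood at 162, 302, 478 and 647 CPM (KO-labelled) and 161, 402, 532 and 519 CPM (WT-labelled). Cd274, which encodes the checkpoint ligand PD-L1, stood at 674, 756, 1220 and 1595 CPM (KO-labelled) and 691, 1017, 1347 and 1238 CPM (WT-labelled). The steps kept 1 direction in the KO-labelled library for these genes, while Relb and Cd274 were highest among WT-labelled members with 3 or 4.

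Il12b, the p40 subunit of IL-12 and IL-23, marked the upper end within the members. It had 2 UMIs in the 60 KO-labelled members with none of the genes (3.89 CPM) and none in the 50 WT-labelled ones. It reached 96.8 and 310 CPM with 1 or 2, 537 and 742 CPM with 3 or 4, and 543 and 437 CPM outside. The cells with Il12b were few, 14 of 163 KO-labelled and 30 of 162 WT-labelled members, and the 3 highest cells held 62.3% and 32.9% of its UMIs. Ly75, the antigen uptake receptor DEC-205, stood at 103, 317, 785 and 1128 CPM (KO-labelled) and 198, 539, 1097 and 923 CPM (WT-labelled).

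Class II genes ran the other way. The cells outside were chosen by low H2-Ab1, so levels of class II genes there are not independent of that choice. Ciita stood at 280 CPM with none, 206 with 1 or 2, 112 with 3 or 4 and 10.4 CPM outside in the KO-labelled library, and at 310, 347, 187 and 23 CPM in the WT-labelled library. H2-Aa stood at 7969, 7191, 5935 and 1433 CPM (KO-labelled) and 8893, 8220, 6125 and 1661 CPM (WT-labelled). Cd74, the invariant chain, stood at 19455, 16687, 15044 and 3626 CPM (KO-labelled) and 18164, 16774, 12628 and 3129 CPM (WT-labelled). The summed class II list was lower at the upper end, being 32029 and 30290 CPM with 3 or 4 genes against 41508 and 41628 CPM with none, and was 9083 and 9623 CPM outside, where the rule itself set H2-Ab1 low. H2-Eb2, whose promoter window carries the same motif as H2-Eb1, did the opposite: it stood at 95.1 and 174 CPM with 3 or 4 and at 3.89 and 14.3 CPM with none, with 34.6 and 42.7 CPM outside.

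The lectins of cDC2 cells were highest at the lower end of the order. Cd209a stood at 1824 and 1874 CPM with none, 673 and 373 with 1 or 2, 124 and 71.8 with 3 or 4, and 6.92 and 49.2 CPM outside. Mgl2, a galactose-binding lectin, stood at 878 and 832, 540 and 158, 126 and 41.3, and 3.46 and 6.57 CPM in the same order. Ccr2, the receptor that brings monocytes and pre-dendritic cells out of the blood, was at 200.5 and 120.3 CPM with none and 7.13 and 14.4 CPM with 3 or 4. Against the gated cDC2 cells, members with none were higher in Cd209a, which stood at 1090 and 1672 CPM in the gate, and in Mgl2, at 708 and 634 CPM there. They were lower in Ccr2, at 532 and 499 CPM in the gate, and in the lectin Clec10a, at 136 and 173 CPM against 248 and 399 CPM in the gate. The gate asked for 2 or more of Cd209a, Mgl2, Clec10a and Tnip3, so its levels of these genes describe its choice.

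Over the 2883 genes with 100 or more UMIs, 203 were at least 2-fold higher in members with 3 or 4 of the genes than in those with none in both libraries, and 189 were at least 2-fold lower. Led by Il12b, the higher ones included Serpinb6b (a serine protease inhibitor, 290 and 426 CPM against 1.95 and 4.08 CPM), Dpp10, Adcy6 (an adenylyl cyclase, 169 and 133 CPM against 0 in both), Slc22a23, Lima1, Net1 (an exchange factor of RhoA) and Tnfrsf11a (RANK, 109 and 158 CPM against 5.84 and 12.2 CPM). The lower ones were led by the lectins Cd209e, Cd209d and Cd209a with Dok2, Cdh1 (E-cadherin, 38 and 5.39 CPM against 364 and 267 CPM), Ccl24 and the cycling genes Hist1h1b and Top2a. Because the split used rule genes of the same cells, these counts describe the order and test nothing.

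**Figure D2:**
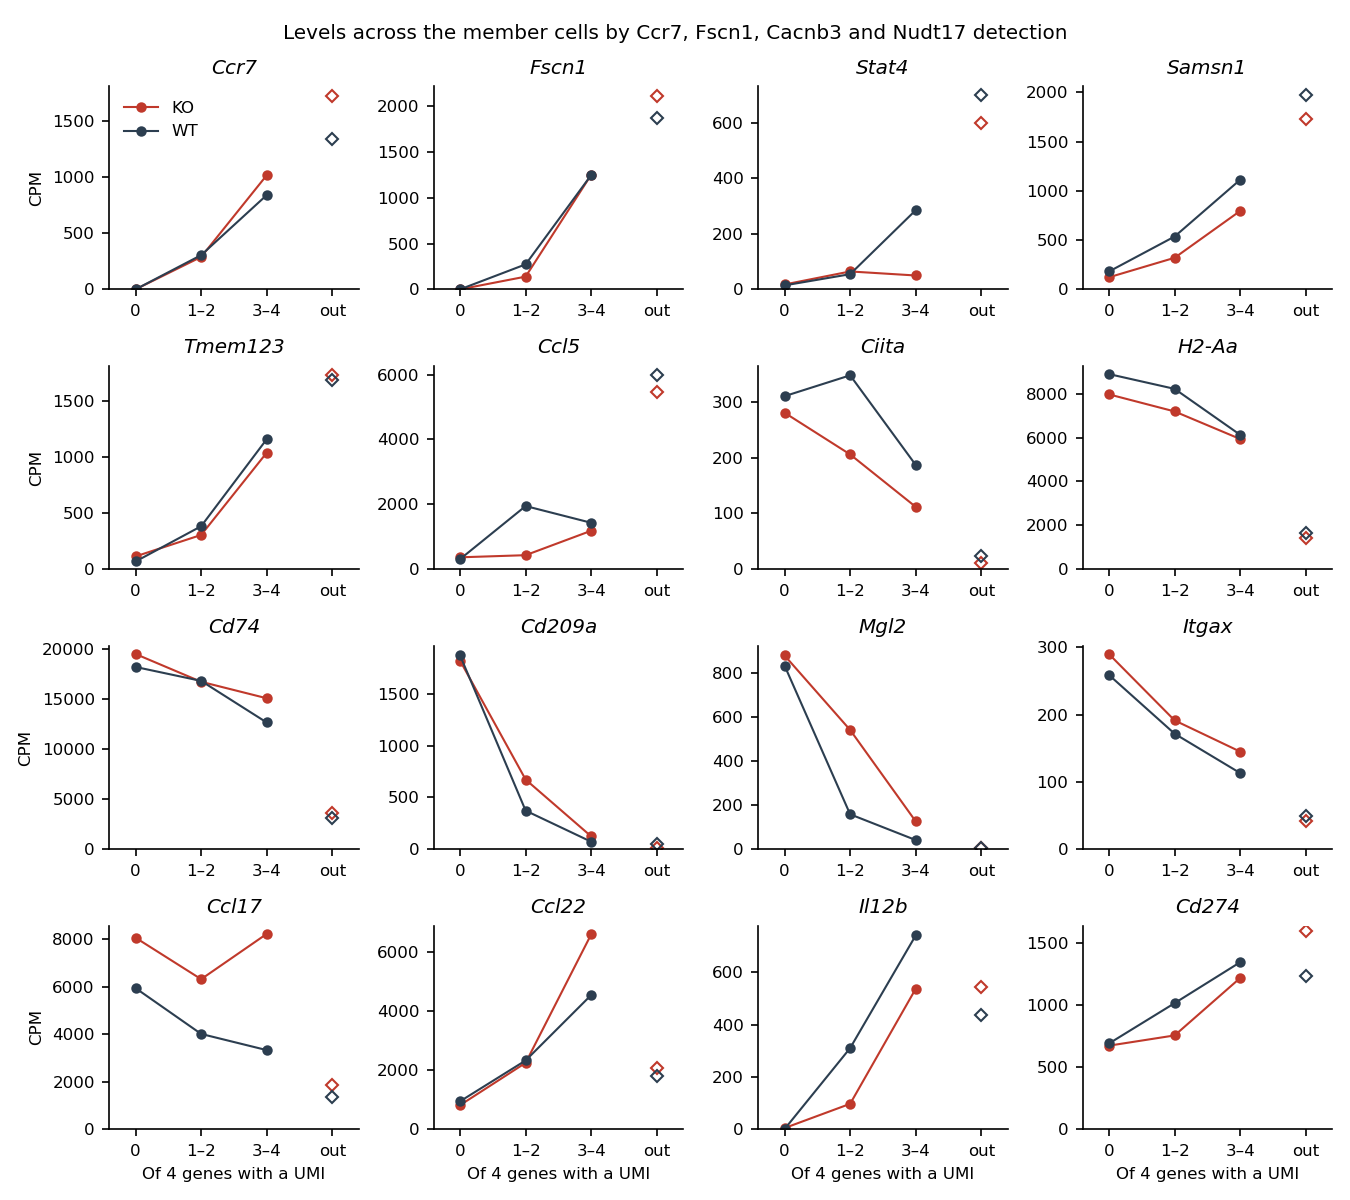
CPM of 16 genes (vertical axes, from 0) in member cells with none, 1 or 2, and 3 or 4 of Ccr7, Fscn1, Cacnb3 and Nudt17, and as open diamonds in the cells outside the H2-Ab1 minimum; KO-labelled in red, WT-labelled in dark blue, 1 library each. Tmem123 and Samsn1 climb from 115 and 123 CPM at the left in the KO-labelled library to 1734 CPM outside, while Cd209a starts at 1824 and ends at 6.92 CPM.

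Lineage genes placed most members on the cDC2 side. More cDC2 than cDC1 identity genes were found in 138 of 163 KO-labelled members (84.7%, interval 78.2 to 89.8) and 137 of 162 WT-labelled members (84.6%, interval 78.1 to 89.8). The cDC1 side held 19 and 16 members, and 6 and 9 were tied. The cDC1 side was 26.5% and 14.3% of members with 3 or 4 of the 4 genes and 1.67% and 2% of those with none. Members with 3 or 4 were placed less clearly, with medians of 4 and 3.5 cDC1 genes against 5 cDC2 genes in either library. Over all members the medians were 4 cDC1 and 9 cDC2 genes in either library. Xcr1, a cDC1 chemokine receptor, was at 2.80 and 3.21 CPM in members, against 199 CPM in the cDC1 gate of either library. Clec9a, a receptor for dead-cell actin, was at 10.5 and 10.9 CPM against 263 and 265 CPM in the cDC1 gate. Xcr1 and Clec9a were among the genes that chose the cDC1 gate, so their levels there describe that choice. The cDC1 identity list summed to 2199 and 2069 CPM in members and 1395 and 1632 CPM in the cDC2 gate. In the cDC1 gate it summed to 7749 and 7664 CPM. The cDC2 identity list summed to 8895 and 8834 CPM in members with none of the 4 genes. It summed to 3415 and 5613 CPM with 3 or 4, and to 10350 and 9838 CPM in the cDC2 gate. Genes of the dendritic lineage list summed to 15842 and 14071 CPM in members, 34949 and 31981 CPM in the cDC1 gate and 10655 and 8533 CPM in the cDC2 gate. Zbtb46, a transcription factor of conventional dendritic cells, was at 74.1 and 87.8 CPM in members, 94.3 and 83.2 CPM in the cDC1 gate and 61.4 and 51.5 CPM in the cDC2 gate.

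Surface CD11b, the integrin encoded by Itgam, followed the same order by medians and not by means. The tag of this antibody, the only one read well above B cells, is printed with its barcode as deposited.
CD11b tag: TGAAGGCTCATTTGT
Members had a mean of 43.7 tag UMIs (median 31) in the KO-labelled library and 56.1 (median 28.5) in the WT-labelled library. The cDC2 gate had means of 112 and 81.9, the cDC1 gate 23.4 and 20.6, and B cells, taken as background, 17.6 and 15.8. Over B cells the members stood at log2 values of 1.31 (KO-labelled) and 1.83 (WT-labelled). T cells stood at 1.16 and 0.58, with means of 39.2 and 23.7 but medians of 5 and 4. By means, KO-labelled members were thus close to T cells. The medians were 40.5 and 48 tag UMIs with none of the 4 genes, 31.5 and 20.5 with 1 or 2, 19 and 19.5 with 3 or 4, and 19.5 and 12 outside. The means were 46.5 and 60.0, 50.1 and 47.8, and 33.3 and 60.8 in the 3 subsets of members in that order. The difference of KO-labelled minus WT-labelled log2 values over B cells was -0.52 by means, -0.20 by medians and -0.032 by the share of the tag counts. CD14 (3.03 and 3.75), CCR3 (1.17 and 1.17), ST2 (0.896 and 0.759) and Ly-6C (21.9 and 12.7) had mean tag UMIs near those of B cells, at 2.51 and 3.20, 1.09 and 1.13, 0.842 and 0.834, and 21.6 and 10.8.

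At least 3 of 6 cycling genes were found in 8 KO-labelled members (4.91%, interval 2.14 to 9.44) and 3 WT-labelled members (1.85%, interval 0.384 to 5.32). In the cDC1 gate, with medians of 8853 and 9716 UMIs, the shares were 17.5% and 15.1%, in the cDC2 gate 9.78% and 3.64% (WT-labelled interval 1.00 to 9.05), and in the neutrophil gate 0.152% and 0.121%. Thinned to 2000 UMIs, the shares were 1.23% and 0.617% of members, 10.4% and 6.92% of cDC1 cells and 8.84% and 1.83% of cDC2 cells. Of the 8 KO-labelled cycling members, 6 were among those with none of the 4 genes.

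Set against both gates, 202 of 7376 genes with 100 or more UMIs (2.74%) were at least 2-fold higher in members than in the cDC1 and the cDC2 gate in both libraries, and 187 (2.54%) were at least 2-fold lower. These are descriptions, since the rule chose the members on RNA of the same cells. Dpp10, a dipeptidyl peptidase relative, was at 67.8 and 78.2 CPM in members, 0 and 0.635 CPM in the cDC1 gate and 1.16 and 0 CPM in the cDC2 gate. H2-M2, a nonclassical class I gene, was at 92.3 and 66.0 CPM in members and at most 4.64 CPM in any gate. H2-Eb2 was at 48.2 and 98.1 CPM in members and at most 2.90 CPM in any gate. Apol7c, an apolipoprotein L family gene of mouse dendritic cells, was at 415 and 101 CPM in members, 16.0 and 1.90 CPM in the cDC1 gate and 0.579 and 0 CPM in the cDC2 gate. The chemokine Ccl17, a CCR4 ligand like Ccl22, was at 7509 and 4375 CPM in members, against 1793 and 1330 CPM in the cDC1 gate and 1070 and 1160 CPM in the cDC2 gate.

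Macrophage genes led the same ranking. The monocyte-attracting chemokines Ccl12, Ccl8 and Ccl7 and the macrophage genes Ms4a7 and Pf4 were among the 10 leading genes, and the gates, unlike the members, excluded cells with C1q RNA by construction. At least 2 of C1qa, C1qb and C1qc were found in 21 KO-labelled (12.9%) and 27 WT-labelled members (16.7%). All 20 genes of the macrophage list were detected in both libraries, with a summed level of 3158 and 4062 CPM in members, and in members with 3 or 4 of the 4 genes 1320 and 3685 CPM. Ccl8 was in 6.13% of KO-labelled and 3.70% of WT-labelled members, and its 3 highest cells held 88.4% and 95.7% of its UMIs. How far macrophage RNA sets these levels was not tested.

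Among the 10 genes lowest over both gates, Srgap3, which acts on Rac, was at 9.09 and 5.13 CPM in members, 97.7 and 95.2 CPM in the cDC1 gate and 59.1 and 45.9 CPM in the cDC2 gate. Iqgap2, a scaffold of the actin skeleton, was at 16.8 and 15.4 CPM in members, 100.1 and 104 CPM in the cDC1 gate and 145 and 111 CPM in the cDC2 gate. Racgap1, which acts in cell division, was at 3.50 and 1.28 CPM in members and at 10.1 CPM or more in every gate. Ly6d, Adamts6, Unc119, Galnt10, Cnr2 (the cannabinoid receptor of immune cells), Map3k4 and Fgfr1 completed the 10, with ratios shown in the plot of members over gates.

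**Figure D3:**
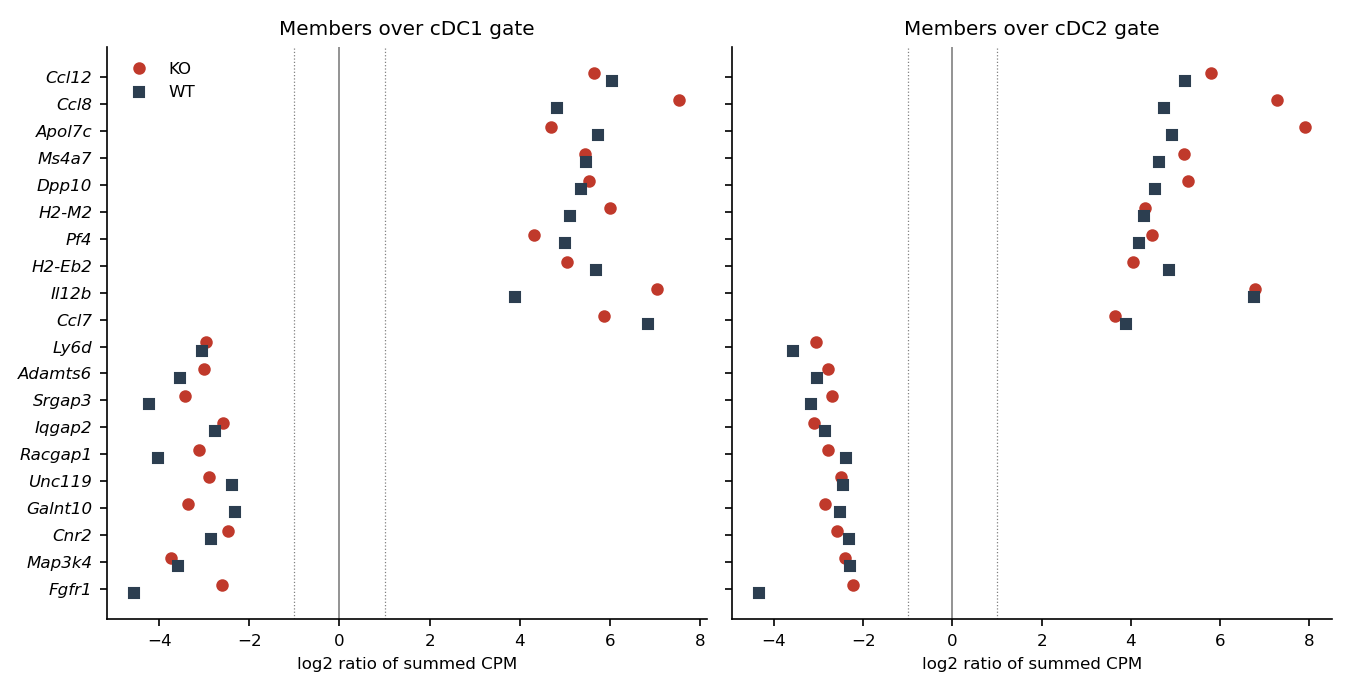
Log2 ratio of CPM in members over the cDC1 gate (left) and the cDC2 gate (right) for the 10 genes highest and 10 lowest over both gates; red circles are the KO-labelled and dark squares the WT-labelled library, and dotted lines mark 2-fold. Both libraries lie on the same side for all 20 genes, as the rule for naming them required.

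The genotype comparison asks whether the members differed between Plaur-/- and WT mice. Plaur itself did not mark the label: it was in 26.4% of KO-labelled and 25.3% of WT-labelled members, at 74.1 and 100 CPM (log2 -0.43, 95% interval -0.80 to -0.07). Thinned, Plaur was in 13.5% of KO-labelled and 10.5% of WT-labelled members. It was in 77.7% and 87.7% of neutrophils, but the order was the other way in T cells (35.3% and 7.63%), B cells (40.9% and 28.6%), the cDC2 gate (31.5% and 24.8%) and the cDC1 gate (10.4% and 5.66%). Transcripts counted at the 3′ end can come from outside a deleted part, so this checks nothing, and the direction of every difference rests on the labels.

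Of 6461 genes with 40 or more UMIs in members over both libraries, 92 (1.42%) were 2-fold or more higher in KO-labelled members and 93 (1.44%) were 2-fold or more lower. With the doublet calls removed the counts were 63 and 154. The median log2 ratio was -0.03. Several of the strongest differences came from few cells, as the scatter of the libraries and the values below show.

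**Figure D4:**
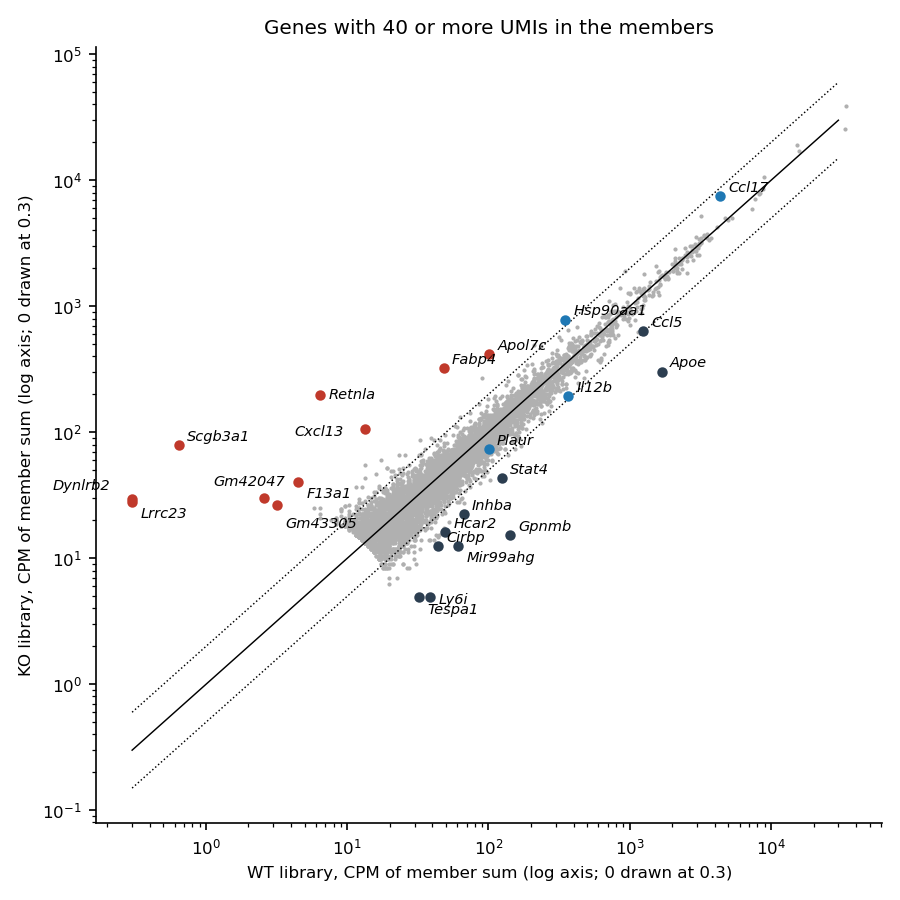
CPM in KO-labelled (vertical) against WT-labelled members (horizontal) for 6461 genes, both axes logarithmic with 0 drawn at 0.3; the solid line is equality and dotted lines mark 2-fold. Red points are the 10 genes named as highest, dark points the 10 named as lowest and blue points other genes of the text; Apol7c and Fabp4 lie above the upper line and Apoe below the lower one.

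Among the 10 genes named as highest, several belonged to 1 or 2 cells. Scgb3a1, an airway secretoglobin, was at 79.7 CPM in KO-labelled and 0.641 CPM in WT-labelled members, and 112 of its 114 KO-labelled UMIs were in 1 cell. Retnla, a product of alternatively activated macrophages and dendritic cells in mouse, was at 199 and 6.41 CPM, with 280 of 284 KO-labelled UMIs in 1 cell. The cilium genes Lrrc23 and Dynlrb2 had 42 and 40 UMIs, all in 1 KO-labelled member, and none in WT-labelled members, where a count of 0 allows up to 3 UMIs. Cxcl13, a chemokine of B cell follicles, was in 2 KO-labelled members and 1 WT-labelled member. F13a1, a transglutaminase of monocytes, was at 40.6 and 4.49 CPM in 3.07% and 3.09% of members. For the first 5 of these genes the 3 highest cells held all UMIs in each library that had any, and for F13a1 they held 84.5% and 71.4%.

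Apol7c and Fabp4 were spread wider. Apol7c was at 415 CPM in KO-labelled and 101 CPM in WT-labelled members (log2 2.04, 95% interval 1.78 to 2.30) and was found in 23.9% and 13.6% of them. Thinned, the shares were 19.6% and 9.88% of members, against 0.144% and 0.0851% in neutrophils. It was higher in members with 3 or 4 of the 4 genes, at 1203 and 192 CPM, and in those with 1 or 2, at 147 and 35.1 CPM (log2 2.07), while members with none had 29.2 and 67.3 CPM, the opposite order. Without the 3 highest cells of each library the ratio was 2.15. In the cDC1 gate Apol7c was also higher, at 16.0 and 1.90 CPM.

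Fabp4, a fatty acid binding protein of alveolar macrophages, was at 322 CPM in KO-labelled and 48.1 CPM in WT-labelled members (log2 2.74, 95% interval 2.39 to 3.12), in 22.7% and 9.26% of them. Thinned, it was in 11% and 6.17% of members and in 1.87% and 1.96% of neutrophils. It was higher in all 3 subsets, at 262 and 37.7 CPM with 3 or 4 genes, 550 and 101 with 1 or 2, and 152 and 4.08 with none. In the cDC1 and cDC2 gates it was at 11.6 CPM or less in both libraries. Other alveolar macrophage genes moved with it in part: Ear2 was at 112 and 58.3 CPM and Krt79 at 21.0 and 8.34 CPM, while Siglecf was at 2.80 and 2.56 CPM and Marco at 7.69 and 8.98 CPM. Their part in the Fabp4 difference was not tested.

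The predicted genes Gm42047 (30.1 and 2.56 CPM, log2 ratio 3.55, interval 2.09 to 5.49) and Gm43305 (26.6 and 3.21 CPM, log2 ratio 3.05, interval 1.70 to 4.75) were thinly but widely found, in 21.5% and 2.47% and in 16.6% and 3.09% of members. They were not limited to members: in the neutrophil gate Gm42047 was in 1.52% and 0.323% of cells and Gm43305 in 2.08% and 0.404%. In the cDC2 gate Gm43305 was at 22 and 5.60 CPM.

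Apoe, the lipid carrier of macrophages, was at 303 CPM in KO-labelled members, against 1687 CPM in WT-labelled members (log2 -2.47, 95% interval -2.62 to -2.33), in 9.20% and 25.9% of members. Its 3 highest cells held 78.8% of KO-labelled and 35.5% of WT-labelled UMIs, and without them the ratio was -4.08. Other cells differed too: thinned, Apoe was in 2.44% of KO-labelled and 25.4% of WT-labelled neutrophils, in 5.54% and 23.3% of B cells, and in 1.89% and 0.629% of cDC1 cells, against 6.13% and 18.5% of members. In the neutrophil gate it stood at 47.8 and 603 CPM. The WT-labelled share in members lay below that in WT-labelled neutrophils, and where the RNA came from was not tested. Gpnmb, a glycoprotein of lipid-laden macrophages, was at 15.4 and 142 CPM in members (log2 -3.20, 95% interval -3.91 to -2.57) and at 6.65 and 38.3 CPM in the neutrophil gate. The 3 highest members held 54.5% and 61.5% of Gpnmb UMIs, and without them the ratio was -2.98.

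Stat4, which carries IL-12 signals, was at 43.3 CPM in KO-labelled and 124 CPM in WT-labelled members (log2 -1.52, 95% interval -1.96 to -1.10). The difference lay in members with 3 or 4 of the 4 genes, at 49.9 and 286 CPM, and members with none stood at 17.5 and 14.3 CPM. In the cells outside the H2-Ab1 minimum Stat4 was at 599 and 699 CPM. The neutrophil gate stood at 73.6 and 144 CPM, while T cells, which use STAT4, had it in 40.3% and 42.8% of thinned cells. With the 3 subsets weighted alike the ratio in members was -0.66, short of 2-fold.

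Of the remaining genes named as lowest, all but Ccl5 had at most 136 UMIs over both libraries. Hcar2, a receptor of niacin and butyrate, was at 16.1 and 49.4 CPM in members (log2 -1.62, 95% interval -2.36 to -0.93), and at 277 and 498 CPM in the neutrophil gate. Inhba, the activin A subunit, was at 22.4 and 66.7 CPM in members and 24.6 and 77.9 CPM in the neutrophil gate. Cirbp, a cold-inducible RNA-binding protein, was at 12.6 and 43.6 CPM (log2 -1.79, 95% interval -2.63 to -1.03), and thinned it was in 1.84% and 7.41% of members, 5.84% and 8.77% of neutrophils and 11.6% and 22.5% of B cells. Ly6i (4.89 and 38.5 CPM), Tespa1 (4.89 and 32.1 CPM) and the microRNA host gene Mir99ahg (12.6 and 60.9 CPM) had 7, 7 and 18 UMIs in KO-labelled members. Ccl5, an inflammatory chemokine, was at 631 and 1249 CPM, a log2 ratio of -0.98 (interval -1.10 to -0.87) just short of 2-fold, and without the 3 highest cells of each library it was -0.58.

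Chemokines that draw CCR4-bearing T cells did not move together. Ccl17 was at 7509 CPM in KO-labelled and 4375 CPM in WT-labelled members (log2 0.78, 95% interval 0.74 to 0.82), short of 2-fold over all members, with medians of 55 and 27.5 UMIs per cell. Ccl22 was at 3006 and 2678 CPM (log2 0.17, 95% interval 0.10 to 0.23), with medians of 7 and 7.5 UMIs. Ccl17 passed 2-fold in members with 3 or 4 of the 4 genes, at 8230 and 3330 CPM (log2 ratio 1.31), and stood at 8068 and 5942 CPM in those with none (0.44). In the gates its ratio was 0.43 in cDC1 and -0.12 in cDC2 cells. Along the order of the 4 genes none to 3 or 4, Ccl17 stood at 8068, 6320 and 8230 CPM in KO-labelled members, and at 5942, 4012 and 3330 CPM in WT-labelled members.

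Of 17 genes of the chemokine list measured at 20 or more UMIs, Ccl17 included, 10 were above and 7 below the WT-labelled level, with a median log2 ratio of 0.03 that was -0.63 in members with 3 or 4 of the 4 genes and 0.44 in those with none. Over all 8223 genes at that minimum, 47.3% were above and 52.7% below, with a median of -0.02. Cxcl9, an interferon-induced CXCR3 ligand, was at 2502 and 2512 CPM, and Cxcl16 at 747 and 775 CPM. Ccl24, an eotaxin, was at 143 and 74.4 CPM (0.94) and Ccl8 at 271 and 90.4 CPM (1.58).

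The maturation list tilted to the WT-labelled side. Of its 47 measured genes 36 were lower and 11 higher in KO-labelled members, with a median log2 ratio of -0.25, but 0 were lower and 2 were higher by 2-fold. Over all 8223 genes with 20 or more UMIs, 2.94% were 2-fold higher and 2.59% were 2-fold lower. Samsn1 was at 389 and 631 CPM (-0.70), Tbc1d4 at 559 and 785 CPM (-0.49), Mreg at 293 and 427 CPM (-0.54), Cd86 at 795 and 939 CPM (-0.24) and Marcks at 1084 and 1121 CPM (-0.05). The 2 higher ones were Apol7c and Aldh1a2, which makes retinoic acid, at 86.7 and 41.0 CPM (log2 1.08, 95% interval 0.63 to 1.54). Fabp5, a fatty acid binding protein, was at 5239 and 3201 CPM (0.71), above the WT-labelled level against the run of the list. The summed list was 26208 and 23508 CPM, higher in the KO-labelled library while the median was lower. Ccl17 and Fabp5 were its 2 most abundant genes.

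Members with 3 or 4 of the 4 genes were 30.1% of KO-labelled and 34.6% of WT-labelled members, shares whose intervals overlap. The median of the maturation list was -0.07 in members with 3 or 4 and 0.08 in those with none, both nearer 0 than over all members. It was not taken in members with 1 or 2, where the summed list stood at 23693 and 22893 CPM. There, of the genes given above, Tmem123, Samsn1, Relb, Cd274 and Ly75 were lower in the KO-labelled library, while Ccl17 and Apol7c were higher. Whether the mix of subsets sets the tilt of the list was not tested. The cDC1 gate had a median of -0.22 with 31 of 41 genes lower, and the cDC2 gate -0.12 with 25 of 39 lower.

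Costimulation and checkpoint genes gave 18 lower and 5 higher of 23 (median -0.24), with Cd80 at 254 and 331 CPM, Cd83 at 641 and 755 CPM, Cd274 at 863 and 1032 CPM, Cd40 at 487 and 508 CPM and Pdcd1lg2, which encodes PD-L2, at 339 and 333 CPM. None of these passed 2-fold. Nectin2, an adhesion ligand of the same list, did, at 17.5 and 36.5 CPM (log2 -1.06, 95% interval -1.80 to -0.36), and over the alternatives it ranged between -1.26 and -0.30. Cytokines gave 12 lower and 2 higher of 14 (median -0.29). Il1b was at 783 and 1094 CPM (-0.48), Tnf at 34.3 and 51.3 CPM (-0.58), Il12b at 193 and 367 CPM (-0.93) and the IL-1 antagonist Il1rn at 138 and 177 CPM (-0.36).

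Class II genes gave 13 lower and 4 higher of 17, with a median of -0.26. The abundant chains differed by little: H2-Aa was at 7101 and 7684 CPM (-0.11), H2-Eb1 at 7739 and 8239 CPM (-0.09) and Cd74 at 17198 and 15731 CPM (0.13). Ciita was at 205 and 278 CPM (log2 -0.44, 95% interval -0.66 to -0.22), Ctss, the protease that trims the invariant chain, at 1233 and 1599 CPM (-0.38), and the thiol reductase Ifi30 at 2434 and 2100 CPM (0.21). H2-Eb2 alone passed 2-fold, at 48.2 and 98.1 CPM (log2 -1.02, 95% interval -1.46 to -0.60). In members with 3 or 4 of the 4 genes, where most of it lay, its ratio was -0.87.

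Tolerance and metabolism genes had the lowest median, -0.41, with 14 lower and 5 higher of 19. The cDC1 gate had a median of -0.31 with 11 of 15 genes lower, and the cDC2 gate -0.16 with 12 of 20 lower. Kynu, a kynurenine pathway enzyme, was at 222 and 337 CPM (-0.61), the inhibitory receptor gene Lilrb4a at 242 and 333 CPM (-0.46), the prostaglandin synthase Ptgs2 at 38.5 and 73.1 CPM (-0.93) and Axl, a receptor for dying cells, at 120 and 159 CPM (-0.41). Cytokine receptors and STATs gave 30 lower and 9 higher of 39 (median -0.15), survival genes 21 and 8 of 29 (-0.16), and NF-kB genes 18 and 10 of 28 (-0.09). The NF-kB medians were lower in the gates, at -0.32 in cDC1 and -0.26 in cDC2 cells. Of the chemokine receptors 11 were lower and 4 higher of 15 (-0.23). Cxcr5, the receptor for Cxcl13, was at 8.39 and 26.3 CPM (log2 -1.65, 95% interval -2.71 to -0.69), while Ccr2 was at 111 and 59.6 CPM (0.90).

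Heat shock genes leaned to the KO-labelled side. Of 20 measured genes 18 were higher and 2 lower, with a median of 0.42. Hsp90aa1, a cytosolic chaperone, was at 784 and 349 CPM (log2 1.17, 95% interval 1.02 to 1.32), Hspa8 at 1394 and 855 CPM (0.70), Hsp90ab1 at 1816 and 1265 CPM (0.52) and the HSP110 gene Hsph1 at 52.4 and 19.2 CPM (1.45). The Hsp90aa1 ratio was 0.79 without its 3 highest cells in each library and 0.80 with the doublet calls removed, both short of 2-fold. In the gates too, 16 of 19 genes in the cDC1 gate and 16 of 20 in the cDC2 gate were higher, with medians of 0.25 and 0.46.

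Genes of type 2 immunity gave 13 higher and 7 lower of 20, with a median of 0.11. The gates differed: 11 were higher and 5 lower of 16 in the cDC1 gate (median 0.11), but 7 higher and 11 lower of 18 in the cDC2 gate (median -0.21). Mgl2 was at 540 and 328 CPM (0.72), Cd209a at 925 and 737 CPM (0.33), Mrc1, the mannose receptor, at 484 and 369 CPM (0.39) and Chil3, a chitinase-like protein, at 643 and 367 CPM (0.81). Chil3 was found in fewer KO-labelled than WT-labelled members, 16.0% and 23.5%. Its 3 highest cells held 51.5% and 85.1% of its UMIs, and without them the ratio was 2.50. Stat6, which carries IL-4 and IL-13 signals, was at 55.2 and 60.9 CPM (-0.14) and Il4ra at 138 and 146 CPM (-0.08). Cd209a was in 61.3% of KO-labelled and 40.1% of WT-labelled members, and thinned in 51.5% and 32.1%, against 0.718% and 1.11% of neutrophils. The thinned shares were 16.3% and 5.36% with 3 or 4 of the 4 genes, 55.6% and 25.0% with 1 or 2, and 76.7% and 70.0% with none.

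Genes of the plasminogen system, to which uPAR belongs, were even. Of 19 measured genes 11 were higher and 8 lower, with a median of 0.06 and none past 2-fold. Over all genes with 20 or more UMIs only 2.94% were 2-fold higher and 2.59% lower, so none of 19 sets the list apart little. The pair S100a10 (687 and 426 CPM, 0.69) and Anxa2 (1086 and 962 CPM, 0.18), which together bind plasminogen, stood higher, as did the protease inhibitor Timp1 (184 and 98.7 CPM, 0.90). Plau, the urokinase gene, was at 20.3 and 14.7 CPM and Mmp14, a membrane protease, at 148 and 178 CPM. Migration and cytoskeleton genes gave 18 higher and 20 lower of 38 (median -0.02). Cell cycle genes gave 19 higher and 6 lower of 25 (median 0.12), with Stmn1 at 90.2 and 39.1 CPM (log2 1.21, 95% interval 0.76 to 1.67), and the same list had medians of 0.31 in the cDC1 and 1.16 in the cDC2 gate.

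**Figure D5:**
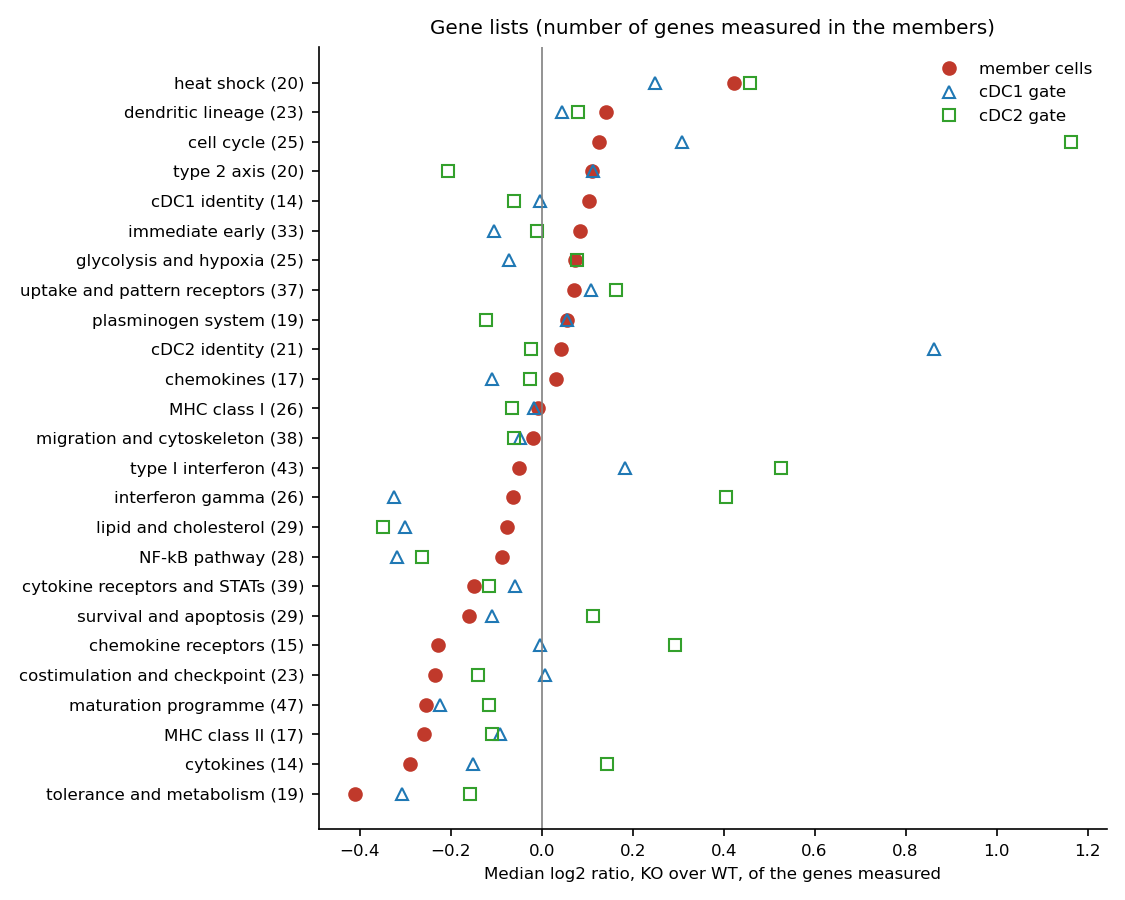
Median log2 ratio, KO-labelled over WT (horizontal), for 25 gene lists in members (red circles), the cDC1 gate (blue triangles) and the cDC2 gate (green squares); numbers in brackets count genes with 20 or more UMIs in members. In members 11 medians lie above 0 and 14 do not, from 0.42 for heat shock to -0.41 for tolerance and metabolism.

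RNA of other cell types differed between the libraries within members. The neutrophil list of 14 genes summed to 2814 and 2799 CPM, with 2 and 1 of its genes at 0, and to 5593 and 2755 CPM in members with 3 or 4 of the 4 genes against 461 and 4442 CPM in those with none. At least 5 UMIs of S100a8 and S100a9 were in 13 KO-labelled and 8 WT-labelled members, and 3 cells held 73.5% and 73.9% of S100a8. The monocyte list of 11 genes summed to 959 and 553 CPM, with 1 and 0 at 0. The B cell list of 13 genes summed to 37.8 and 28.9 CPM with 3 and 4 at 0, the T cell list of 14 genes to 131 and 138 CPM with 3 and 4 at 0, and the red cell and platelet list to 0.699 and 0.641 CPM. The part of such RNA in the differences above was not tested, beyond the values without the members that hold it.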

How the data were processed

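The deposited files hold raw UMI counts for each cell barcode (genes and antibody tags), made by the authors with Cell Ranger 7.1.0 and 7.0.0 on mm10, per the submitters' processing notes, and with 7.0.0 per the file headers; about 16000 cells were loaded for 10000, per the labels' protocols. Cells needed 200 or more genes and no more than 10% of UMIs from mitochondrial genes, which removed 61 KO-labelled and 80 WT-labelled barcodes. The members and the 39 gene lists were chosen with earlier results of these data known, and 15 list symbols matched none in the matrices. No annotation of cells was used. Doublets were called with Scrublet (scanpy 1.11.5, expected 8%) and kept, with removal as an alternative.

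UMIs were summed over members per library and scaled to CPM. Log2 ratios of KO-labelled over WT-labelled have exact conditional binomial intervals, CPM exact Poisson and shares Clopper-Pearson intervals, at 95% and for counting error only. A gene counted as past the fold at 2-fold with 40 or more UMIs, and list members needed 20. A gene with 0 UMIs in 1 library took 0.5 UMI for list medians. Named genes are the 10 highest and 10 lowest by the interval bound nearest 0, leaving out sex-linked, haemoglobin, ribosomal, mitochondrial and receptor segment genes, the 10 highest and lowest over both gates, up to 4 most abundant and 2 highest and lowest genes per described list, rule genes, markers, Plaur and antibody targets; other named genes were chosen after their values were seen. The cDC1 and cDC2 gates were cells with H2-Ab1 at 10 or more UMIs, fewer than 2 rule genes and no C1q RNA. The cDC1 gate asked for 2 or more of Xcr1, Clec9a, Cadm1, Itgae and Tlr3. The cDC2 gate asked for 2 or more of Cd209a, Mgl2, Clec10a and Tnip3, with fewer than 2 of the cDC1 genes. Antibody levels are mean UMIs per cell. The interval code was tested on simulated counts. SciPy 1.17.1, NumPy 2.4.6, matplotlib 3.10.9 and pandas 2.3.3 on Python 3.11.15, and R 4.3.3 with edgeR 4.0.16 and DESeq2 1.42.0 (the last 2 for scaling factors only) were used.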

Additional observations from a re-analysis of the deposited data

How the results depend on the processing

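The counts of genes 2-fold higher and lower in KO-labelled members, 92 and 93, were 242 and 213 at 20 or more UMIs, 28 and 26 at 100 or more, and 28 and 30 with cells thinned to 2000 UMIs. The higher count was 47 with at least 4 rule genes, 55 without members holding macrophage or neutrophil RNA, 41 in members with 3 or 4 of the 4 genes and 53 without the 3 members per library with most UMIs of the gene. The lower count was 154 with doublet calls removed, 144 with at least 4 rule genes and 153 in members with 3 or 4 of the 4 genes. TMM factors, DESeq2 size factors and other totals gave 88 to 94 higher and 87 to 96 lower. Of the 185 genes past the fold, 131 stayed past it with doublets removed and 89 without the 3 highest members.

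The ratio turned round with at least 4 rule genes for Scgb3a1 (-0.71), Retnla (-1.71), F13a1 (-2.71) and Ccl8 (-0.033), without members holding macrophage or neutrophil RNA for Retnla (-3.25) and Ccl8 (-0.93), in members with 3 or 4 of the 4 genes for Scgb3a1 (-0.60), Retnla (-0.60), F13a1 (-1.60) and Ccl8 (-0.60), and in members with none for Apol7c (-1.20), Mir99ahg (0.52) and Stat4 (0.30). With 3 or 4 of the 4 genes, Scgb3a1, Retnla, F13a1 and Ccl8 had 0 KO-labelled UMIs (set to 0.5) against 1, 1, 2 and 1 WT-labelled UMIs, so these values show no direction. Scgb3a1, Retnla and F13a1 had only 1, 10 and 7 UMIs in all WT-labelled members. The cause of the other changes was not tested. Of 935 alternative values of 80 genes, 234 moved outside the counting interval of the main value, besides the 13 that turned round. Of 350 list medians 10 moved, among them the chemokine list, whose sign changed.

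Members over gates gave 95 higher and 79 lower genes when thinned, against 202 and 187, and 402 lower with only members with 3 or 4 of the 4 genes. The CD11b difference of -0.52 was -0.20 by medians, -0.032 by tag shares and -0.63 without the 1% of cells with most tag UMIs. The cDC2 side was 75.9% of WT-labelled members, against 84.6%, when a difference of 2 detected genes was asked. The share ratio ranged from 0.776 to 1.07 over all alternatives, each inside its interval. The subsets by 4 genes and the dropped H2-Ab1 minimum were chosen after seeing the data. No paired analysis was possible because each genotype has 1 library. Depth limits genes under 40 UMIs, and no spread between animals can be given.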
